A study of Bos taurus with 16 samples.

Results

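The genes described here are the ancient pregnancy-associated glycoproteins (PAGs) and LOC613791, a predicted bovine gene that the array describes as similar to prochymosin. Probes were taken by their gene name, PAG2, PAG8, PAG10, PAG11, PAG12, PAG13 or LOC613791. Of these 7 names, 6 were found among the 20602 gene names of the array, each with 1 probe printed in 2 spots, and no probe carried the name PAG13. PAG10 and LOC613791 were chosen from the difference between endometrium and blood that is given below, so that difference is a description of these genes and carries no test.

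The samples were CD14+ cells of 4 pregnant cows (Bos taurus), taken from the endometrium and from the peripheral blood of the same animal. Animal 1 was at day 164 of pregnancy, animal 2 at day 239, animal 3 at day 242 and animal 4 at day 248, and no animal was nonpregnant or treated. CD14 is a receptor of monocytes and macrophages, and the cells were sorted by flow cytometry for it from dispersed endometrium and from mononuclear cells of heart blood, both collected at an abattoir. Sorting left other cells in both preparations, more of them in the endometrial one, and day of pregnancy cannot be told apart from animal. Amplified RNA of both tissues of an animal was hybridized together, in 2 colors, on 2 arrays, and the dyes were exchanged between these arrays in animals 1, 2 and 4 but not in animal 3. Values below are normalized intensities on the log2 scale, means of 2 arrays, and a log2 ratio is the endometrial value minus the blood value of the same animal. The 2 arrays of an animal are technical replicates, so the number of animals, 4, limits the precision of every mean. Intensities have no counting depth.

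PAGs are secreted glycoproteins of the ruminant placenta that belong to the family of pepsin and chymosin, the aspartic proteases of the stomach. The modern group, to which PAG1B belongs, is made by the binucleate cells of the trophoblast that migrate into and fuse with the uterine epithelium. The ancient group, named after PAG2, is made more widely over the trophoblast. Prochymosin is the inactive precursor of chymosin, the protease that clots milk in the stomach of the calf.

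The probe of each gene is a DNA strand of 60 bases, and its sequence was compared with those of the other probes of the array. No transcript or genome sequences were searched, so the comparison does not show every gene that a signal can come from. The probe of LOC613791 is shown first with the PAG5 probe, because the last 37 bases of the one overlapped the first 37 of the other. Capitals mark the longest stretch of identical bases, read from 5′ to 3′.

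LOC613791: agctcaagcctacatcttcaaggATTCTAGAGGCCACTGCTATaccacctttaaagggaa

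PAG5: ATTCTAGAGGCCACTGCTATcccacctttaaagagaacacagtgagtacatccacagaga

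In the overlap 35 of 37 bases were identical, or 94.6%, and the longest run was 20 bases. The 2 differences, counted from the 5′ end of the LOC613791 probe with its base first, were A44C and G57A. PAG5 is a modern PAG. The probe of PAG19, another modern PAG, overlapped the LOC613791 probe over the same 37 bases with 31 identical, or 83.8%. By sequence the LOC613791 probe was therefore closest to probes of modern PAGs. It shared at most 12 consecutive bases with any probe that does not carry a PAG name, that of chymosin (CYM) included, and probes of different stretches of related transcripts need not share any.

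The ends of the PAG10, PAG8 and PAG7 probes also overlapped. PAG7 is a modern PAG, described with the others below. For each of these probes 30 bases are given, with capitals on the 15 bases that all 3 had in common.

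PAG10: tggggccagGGATGCTGGTGAACTctgttt

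PAG8: cagGGATGCTGGTGAACTatgcctgatgct

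PAG7: gctgccaGGATGCTGGTGAACTgtatttgt

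PAG10 and PAG8 shared 18 consecutive bases, these 15 and the 3 before them. Identity was scored only for overlaps of at least 30 bases, and the best match between PAG10 and PAG7 was 65.6%. The placement that aligns the 18 bases of PAG10 and PAG8 overlaps by fewer than 30 bases and was not scored. The best scored match of that pair, 43.4%, was another placement over 53 bases and does not describe the shared end. The likeness of PAG10 to PAG8 and to PAG7 therefore cannot be compared by these percentages. Of all 21256 probes with 60 bases, the probes of PAG8 and PAG7 were the only ones of other genes that shared a run of 15 or more bases with that of PAG10 on the same strand, and 1 probe did so on the opposite strand. The probes of PAG11, PAG12 and PAG2 shared no run of 15 bases with a probe of another gene. PAG12 and PAG2 are shown as the pair of ancient members whose probes lay on the corresponding stretch, with capitals on their longest common run.

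PAG12: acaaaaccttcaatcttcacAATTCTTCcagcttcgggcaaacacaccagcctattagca

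PAG2: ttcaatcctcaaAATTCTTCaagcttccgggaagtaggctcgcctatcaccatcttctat

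Over 52 bases these probes were identical at 39, or 75%, and the longest run was 8 bases. GC content lay between 38.3% in the PAG11 probe and 55% in the PAG10 probe, with a median of 43.3% over all probes. How much signal a probe took from related transcripts was not tested. In the RefSeq annotation of assembly ARS-UCD2.0, all 5 ancient PAGs lie on the same chromosome, in 1 row with the other PAGs. PAG10, PAG2 and PAG12 were direct neighbors at one end of that row, and PAG11 and PAG8 were the last PAGs at the other end, with the modern PAGs between them. LOC613791 had no entry there.

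PAG10 was higher in endometrium than in blood in all 4 animals, and was measured above background in both tissues. In endometrial CD14+ cells of animals 1 to 4 its log2 level was 13.27, 12.11, 14.78 and 13.03. In blood CD14+ cells of the same animals it was 8.30, 8.93, 9.15 and 8.26. All 4 endometrial levels were above all 4 blood levels, with a gap of 2.96 between the lowest endometrial and the highest blood value. The log2 ratio was 4.97, 3.18, 5.63 and 4.77 in animals 1 to 4, a mean of 4.64 ± 1.04 (SD, n = 4), or 24.9-fold. Animal 2 had the lowest ratio, with the lowest endometrial and the second highest blood level. A bulk sample cannot tell fewer cells that make a transcript from less transcript per cell.

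**Figure D1:**
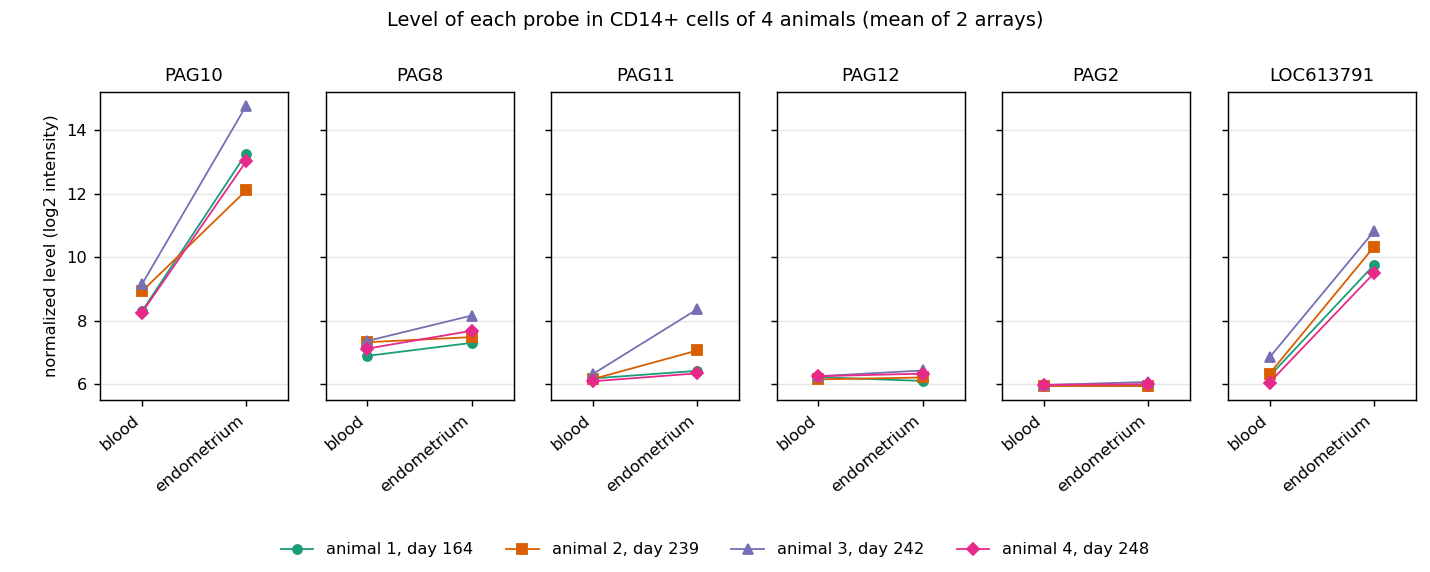
Normalized level (log2 intensity, mean of 2 arrays) of the 5 ancient PAG probes and of LOC613791 in blood and endometrial CD14+ cells, with a line for each of the 4 animals. PAG10 and LOC613791 were higher in endometrium in every animal, PAG11 was highest in endometrium of animal 3, and the lines of PAG12 and PAG2 were nearly flat; levels of different probes are not comparable with each other.

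The difference in PAG10 was also visible in the scanner intensity before any normalization. Its mean over 4 spots was 15877, 5385, 47152 and 7795 in the endometrial channels of animals 1 to 4, over local backgrounds of 29.8 to 46.8. In the blood channels it was 330, 365, 271 and 312, over backgrounds of 14.6 to 29.1. The endometrial spots ranged from 2780.5 to 51519.5 and the blood spots from 200 to 506, so no spot of one tissue reached those of the other. PAG10 was well above background in all 8 blood channels as well. The probe's signal in blood cells therefore was measured, and its ratio is not a bound set by missing blood signal. How much of the blood signal came from PAG10 transcript was not tested. The paper's qPCR, on some of these animals and on others, gave a far larger fold change for PAG10.

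Agreement between arrays was close for PAG10. The 2 arrays of an animal differed by at most 0.17 in log2 ratio. With the endometrial RNA in Cy5 rather than Cy3 the ratio was lower by a mean of 0.09 over the 3 animals with exchanged dyes, which is less than the SD between animals. Animal 3, with the highest ratio, had its endometrial RNA in Cy5 on both arrays.

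**Figure D2:**
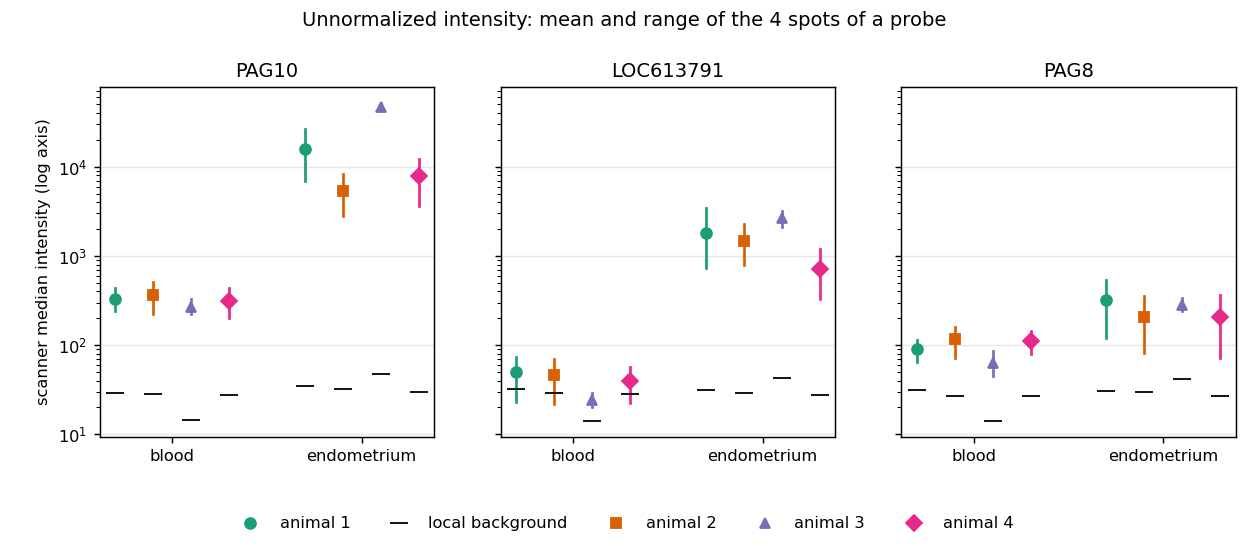
Scanner median intensity before normalization (log axis) of the PAG10, LOC613791 and PAG8 probes, with points for the mean and lines for the range of the 4 spots of an animal and dashes for the local background. The endometrial points of PAG10 (5385 to 47152) lie far above its blood points (271 to 365), and the blood points of LOC613791 (24.2 to 49.6) lie near the background. The endometrial points of PAG8 (206.8 to 322.8) lie above its blood points (62.9 to 117.6), by less than those of PAG10.

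LOC613791 was also higher in endometrium in all 4 animals, with a smaller SD between animals than PAG10. In endometrial cells its log2 level was 9.76, 10.33, 10.82 and 9.5 in animals 1 to 4. In blood cells it was 6.26, 6.34, 6.85 and 6.06. The tissues did not overlap, and the gap between them was 2.64. The ratio was 3.51, 4.00, 3.96 and 3.43 in animals 1 to 4, a mean of 3.73 ± 0.30 (SD, n = 4), or 13.2-fold.

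The blood signal of LOC613791 was near background, which sets how far its fold change can be read. It was well above background in all 8 endometrial channels and in 4 of 8 blood channels, with 1 in each of animals 1 and 2, 2 in animal 3 and none in animal 4. The scanner intensity was 1825, 1471, 2635 and 720 in endometrial cells, and 49.6, 45.6, 24.2 and 39.9 in blood cells over backgrounds of 32.5, 28.8, 14.1 and 28.0. A normexp offset of 50 was added to every background-corrected intensity here, and it draws the ratios of such dim probes toward 0. In the authors' value table, which holds their own log2 values, the same ratio was 5.96, 6.70, 6.85 and 6.99, a mean of 6.62 ± 0.46 (SD, n = 4), or 98.6-fold. The mean for PAG10 in that table was 4.88 ± 1.05 (SD, n = 4), or 29.5-fold, close to the value above. Thus the order of PAG10 and LOC613791 by fold change was opposite in the 2 sets of values. The 2 arrays of an animal differed by up to 0.70 for LOC613791, and the ratio was lower by 0.61 with endometrial RNA in Cy5.

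PAG5 and PAG19, whose probes overlap that of LOC613791, had lower ratios. For PAG5 it was 1.4, 1.54, 2.55 and 1.11 in animals 1 to 4, and for PAG19 it was 0.36, 1.15, 0.12 and 0.04. Neither was well above background in any blood channel, and PAG5 was at least 3.13-fold and PAG19 at least 1.28-fold higher in endometrium against the lowest signal measurable in blood. PAG5 was above background in all 8 endometrial channels and PAG19 in 4 of 8. In the fit over all probes neither was called, with limma adjusted p = 0.242 for PAG5 and 0.499 for PAG19. Chymosin, picked after its value was seen, was above background in 2 of 8 endometrial and 1 of 8 blood channels, and its ratio of 0.04 ± 0.06 (SD, n = 4) was not tested.

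PAG8 differed less between the tissues than PAG10 or LOC613791. Its endometrial log2 level was 7.31, 7.49, 8.17 and 7.69 and its blood level 6.90, 7.33, 7.37 and 7.13 in animals 1 to 4. Each animal was higher in endometrium, by 0.42, 0.16, 0.80 and 0.56, but the endometrial level of animal 1 was below the blood levels of animals 2 and 3. The mean ratio was 0.48 ± 0.27 (SD, n = 4), or 1.4-fold. PAG8 was well above background in all 16 channels.

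PAG11 was highest in 1 animal. Its endometrial level was 6.43, 7.07, 8.37 and 6.35, and its blood level was 6.19, 6.17, 6.33 and 6.10. Ratios of 0.25 in animals 1 and 4, 0.90 in animal 2 and 2.03 in animal 3 gave a mean of 0.86 ± 0.84 (SD, n = 4). Without animal 3 the mean was 0.47. All 8 endometrial channels but only 1 of 8 blood channels were well above background, and the groups were separated by 0.02, less than the SD of either tissue. In the authors' value table the ratios were 2.46, 3.70, 5.07 and 2.43, a mean of 3.41 ± 1.25 (SD, n = 4), with animal 3 again the highest.

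PAG12 and PAG2 gave little or no signal in either tissue. PAG12 lay between 6.11 and 6.44 in endometrial and between 6.16 and 6.26 in blood cells, and was above background in 6 of 8 channels of each. Its ratio was below 0 in animal 1, at -0.12, and 0.05 ± 0.12 (SD, n = 4) on average. PAG2, which gives the ancient group its name, was above background in none of the 16 channels and was not tested, with levels of 5.94 to 6.08 in endometrial and 5.94 to 5.99 in blood cells. Its scanner intensity of 18.0 to 58.2 lay close to local backgrounds of 15 to 46.5. A transcript level under this background was not detectable on these arrays, so absence is not shown.

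Signal above background in every endometrial channel was found for 4 of the 6 probes, those of PAG8, PAG10, PAG11 and LOC613791. Animal 3 had the highest endometrial level of each of them. The order of the other animals differed from gene to gene. Animal 2 was the second highest for LOC613791 and PAG11 and the lowest for PAG10, while animal 1 was the second highest for PAG10 and the lowest for PAG8. With 1 animal for each day of pregnancy, no change with stage can be tested.

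Over the 8 means of animal and tissue, PAG10 and LOC613791 had Pearson's r = 0.967. These 8 points are 4 pairs that share an animal, arrays and the step between tissues, so r mainly reads that step and is a description. The 5 other genes most like PAG10 by this measure were PRP1, a prolactin-related protein (r = 0.987), LOC512903, described as similar to carboxypeptidase A4 (0.986), S100G, the vitamin D-dependent calbindin (0.983), FAM174B (0.981) and RAB13, a small GTPase (0.979). For LOC613791 they were the modern PAGs PAG7 (r = 0.995), PAG4 (0.994) and PAG17 (0.991), then PRP1 (0.986) and CSH2, the placental lactogen, named CSH1 on the array (0.986). The highest r with PAG10 or LOC613791 thus fell on different genes apart from PRP1, which was in both sets. PAG8 had r = 0.820 with PAG10 and 0.763 with LOC613791, and PAG11 had 0.732 and 0.738.

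For all probes of the array, the log2 ratio was tested with limma over the 4 animals. Calls needed a fold change above 2 together with a Benjamini-Hochberg adjusted p no higher than 0.05. Of 16653 probes tested, 11 were called and all were higher in endometrium, which is 0.0661% of the probes. By an unadjusted p of at most 0.05 with the same fold change, 878 were higher in endometrium and 851 in blood. Of the 5 members tested, LOC613791 was among the 11 and PAG10, PAG8, PAG11 and PAG12 were not, and since this is the contrast that chose the members, nothing is read from that count. For 402 probes, or 2.41%, all 4 endometrial levels were above all 4 blood levels, PAG10, PAG11 and LOC613791 among them. Only PAG2 of the 6 failed the filter on dim probes.

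Among the modern PAGs, 14 of 17 names were on the array and all 14 were tested. PAG7 and PAG4 rose, with log2 ratios of 3.84 ± 0.20 (limma SE, adjusted p = 0.0241) and 3.17 ± 0.20 (adjusted p = 0.0273). The other 12 were not called, down to PAG9 at 0.25 ± 0.21 (limma SE, adjusted p = 0.605), and without any 1 of the 4 animals no PAG was called. The endometrial level was the higher one in every animal for 13 of 14, and 11 did not overlap between tissues. Of all 16653 probes tested, 11 (0.0661%) were called. Of the same probes, 1693 were higher in endometrium in every animal and 402, or 2.41%, did not overlap with endometrium higher. The median ratio of the modern PAGs was 1.53, that of the 4 ancient PAGs tested was 0.67, and that of all probes tested was -0.02. With the offset of 50, PAG10 lay above and the other 3 ancient PAGs tested lay below the modern median. In the authors' value table the modern median was 5.22, and PAG10 at 4.88 lay below it as well.

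**Figure D3:**
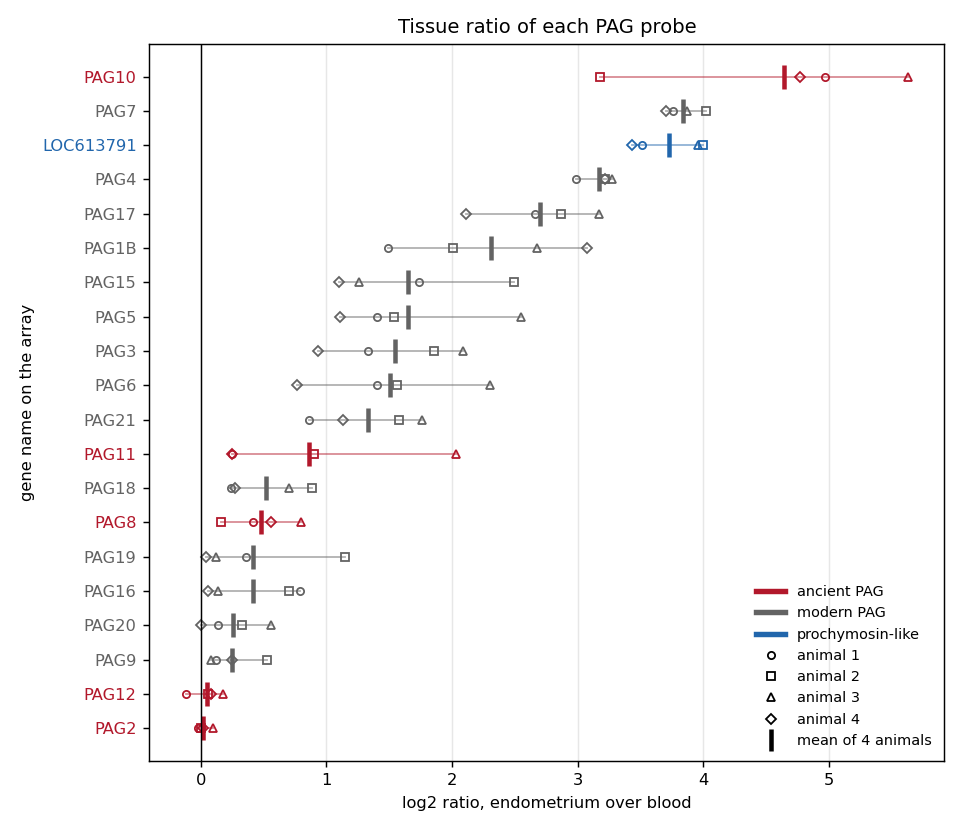
Log2 ratio of endometrium over blood for each PAG probe and LOC613791, with symbols for the 4 animals, a line for their range and a bar for the mean, ordered by the mean with a normexp offset of 50. PAG10 spans 3.18 to 5.63, LOC613791 spans 3.43 to 4.00, and PAG12 and PAG2 lie near 0; the order is that of this processing only, since 10 modern PAGs had no blood channel above background and the authors' value table orders the genes differently.

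The PAGs also differed in whether blood cells gave a signal. PAG10 and PAG8 were well above background in all 8 blood channels, like PAG7, PAG4 and PAG18 among the modern PAGs. Of the other modern PAGs, 10 were above background in no blood channel, and their ratios are bounds of at least 1.17-fold to 6.43-fold. Only differences measured on both sides can be ranked, and 5 PAGs were measured in all 16 channels. With the offset of 50 the order of the highest 3 of them was PAG10, PAG7 and PAG4, and in the authors' value table it was PAG4 (5.19), PAG10 (4.88) and PAG7 (4.63).

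No other aspartic protease was called in either direction. Of 10 names 7 were on the array, and 6 were tested. Their median ratio was 0.44. BACE2, a membrane aspartic protease, was the highest at 1.29 ± 0.58 (limma SE, adjusted p = 0.36), with animal 2 below 0 at -0.67. NAPSA, an aspartic protease of lung and kidney, was the lowest at -2.52 ± 0.75 (limma SE, adjusted p = 0.27), with animal 4 above 0 at 0.11. None of the 6 was separated between tissues, and 2.41% of all probes were separated with endometrium higher.

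Other placental genes and uterine genes were measured beside the PAGs. Of 8 tested placental hormone probes, 3 were called and rose, against 11 (0.0661%) called of all 16653 probes tested. PRP6 rose by 4.36 ± 0.24 (limma SE, adjusted p = 0.0241), PRP1 by 4.22 ± 0.21 (adjusted p = 0.0241) and CSH1 by 3.93 ± 0.24 (adjusted p = 0.0263). PRP9 was the lowest at 0.17 ± 0.21 (limma SE, adjusted p = 0.745). All 8 were higher in endometrium in every animal, as were 1693 of all 16653 probes tested, and their median ratio was 2.28. Their summed normalized intensity was 4895 to 17168 in endometrial and 595 to 1093 in blood cells. In both tissues it was highest in animal 3 and lowest in animal 4.

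Regulators and enzymes of the trophoblast were also measured. None of 4 trophoblast regulators tested was called, and their median ratio was -0.01. The lowest was GATA3 at -0.71 ± 0.40 (limma SE, adjusted p = 0.44) and the highest ELF5 at 0.41 ± 0.22 (adjusted p = 0.427). ELF5 and TFAP2C were higher in endometrium in every animal. They were above background in only 2 and 1 blood channels, and the normexp offset shrinks the ratios of such dim probes. In the authors' value table ELF5 was at 2.30 and TFAP2C at 1.67. GATA3 was at -1.28 and TFAP2A at -0.48 there, and the median was 0.60. CDX2 and TEAD4, regulators of the early trophectoderm, were above background in none of the 16 channels. Summed intensity of the 4 regulators was 339 to 867 in endometrial and 396 to 1107 in blood cells. None of 5 steroid enzymes tested was called, and their median ratio was 0.26. The lowest was CYP17A1 at 0.01 ± 0.28 (limma SE, adjusted p = 0.995) and the highest STAR at 0.64 ± 0.59 (adjusted p = 0.631). In the authors' value table their median was 0.58, from CYP19A1 at -0.15 to SULT1E1 at 3.32. Their summed intensity was 1818 to 3934 in endometrial and 945 to 2614 in blood cells.

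Uterine epithelial genes were higher in endometrium in every animal for all 8 probes tested, against 1693 of all 16653 probes. Their median ratio was 3.11. S100G rose by 4.46 ± 0.31 (limma SE, adjusted p = 0.0332) and was the 1 called, against 11 (0.0661%) of all probes tested. SERPINA14, the uterine serpin of the glands, was the highest at 6.10 ± 0.51 (limma SE, adjusted p = 0.0589), and KRT19 was the lowest at 1.60 ± 0.70 (adjusted p = 0.353). Summed intensity was 14535, 17668, 112511 and 59354 in endometrial cells of animals 1 to 4 and 1228 to 3084 in blood cells. Animal 3 was the highest here too. In this sum animal 4 exceeded animals 1 and 2, unlike for LOC613791 and the placental hormone sum. Such a sum is weighted to the brightest probes, here SERPINA14 with a mean endometrial log2 level of 14.35. The median ratio of the list was 3.21, 2.46, 4.26 and 2.46 in animals 1 to 4, so animal 4 was not above animals 1 and 2 by that measure. The part of trophoblast or epithelial cells in the PAG10 and LOC613791 signal was not tested.

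**Figure D4:**
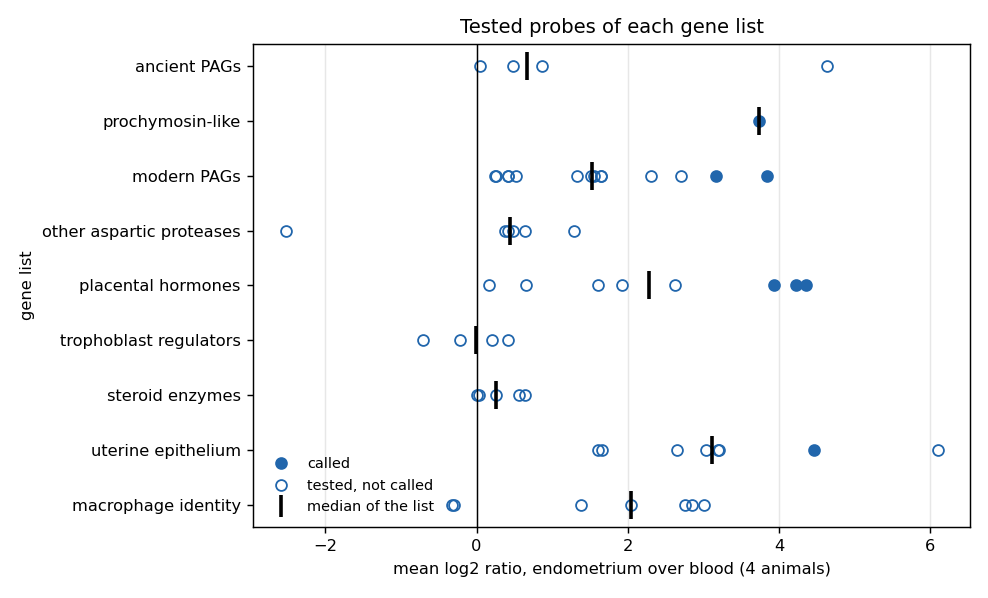
Mean log2 ratio of endometrium over blood of each tested probe in 9 gene lists, with filled points for called probes and a bar at the median of the list. PAG10 lies above the other 3 ancient PAGs tested. The placental hormones (median 2.28) and uterine epithelial genes (median 3.11) lie higher than the trophoblast regulators (median -0.01). These 3 medians include the normexp offset, and in the authors' value table they were 5.35, 4.16 and 0.60.

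Macrophage genes, the check on the label, were present in both tissues. CD14 was above background in all 16 channels, with a ratio of -0.33 ± 0.48 (limma SE, adjusted p = 0.782), and so was CD68 at 1.38 ± 0.44 (adjusted p = 0.276). ITGAM was above background in 2 of 8 endometrial and 4 of 8 blood channels. None of the 7 macrophage probes tested was called, and the highest was MSR1, a scavenger receptor, at 3.01 ± 0.31 (limma SE, adjusted p = 0.0814). Their median ratio was 2.04. Their summed intensity was 94621, 8414, 28027 and 27588 in endometrial cells of animals 1 to 4. In blood cells it was 62008, 1957, 2113 and 1806, so animal 1 lay far above the others in this sum. The sum is weighted to the brightest probes, and AIF1 had the highest mean log2 level, 13.94 in endometrial and 11.09 in blood cells. The ratio of CD14 was -2.08, 0.11, 0.51 and 0.13 in animals 1 to 4.

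Processing moved LOC613791 and PAG11 more than PAG10. With a normexp offset of 16 in place of 50, the mean ratio was 4.70 for LOC613791. From the scanner's own processed signal it was 6.63 for LOC613791 and 3.58 for PAG11, against 3.73 and 0.86 above. PAG10 stayed between 4.31 and 5.12 under every one of these settings and without each animal in turn. With each scanner file as attached to its sample, the ratios were -1.82 for PAG10 and -1.74 for LOC613791. However, in rank order of intensity the authors' value table matched the other technical replicate's file at 100% of probes, which set the reading used here.

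**Figure D5:**
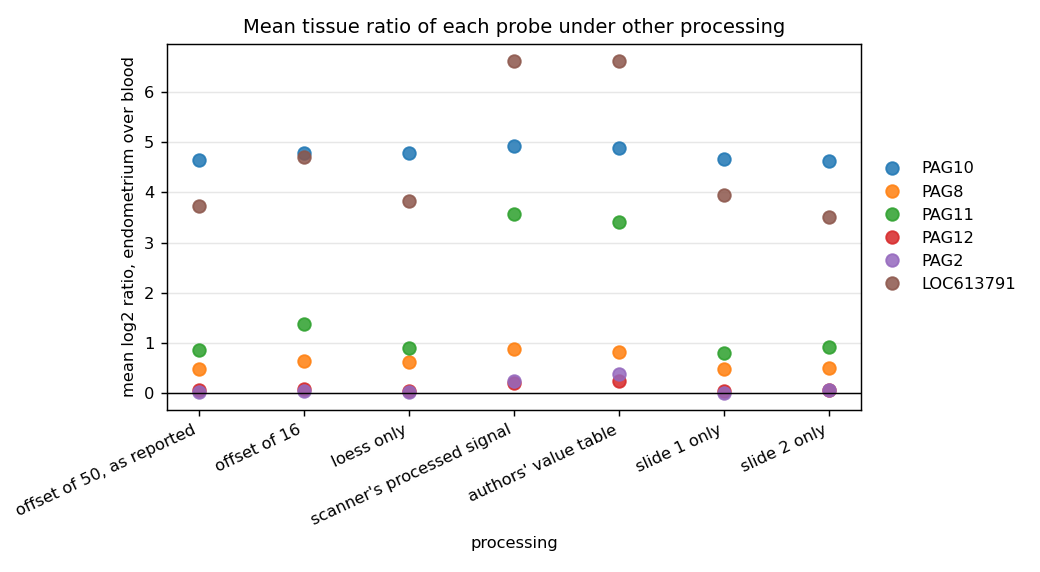
Mean log2 ratio of endometrium over blood over 4 animals for each of the 6 probes under 7 ways of processing. Slide 1 and slide 2 on the axis stand for technical replicates 1 and 2 of the sample labels. PAG10 keeps nearly the same value, LOC613791 (3.51 to 6.63) and PAG11 move upward with the scanner's processed signal and the authors' value table, and PAG12 and PAG2 stay under 0.5.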

How the data were processed

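For each of 16 samples on 8 arrays with 2 colors, the authors deposited the scanner's median intensity of each spot and its local background, and a processed intensity from Agilent Feature Extraction (version 9.5 in the submitters' processing notes, 10.5.1.1 in the file headers). The authors also deposited a table of log2 values, which their methods describe as lowess-corrected on each array and then quantile-normalized. Both files of an array were identical. To match files and table, the processed intensities of a channel were replaced by the values of a table column in rank order. The spots of a probe were compared as a set. All 16 columns then equaled their dye in the file of the animal's other technical replicate, within 0.001 on the log2 scale at 100% of probes. In their own file at most 0.0186% were equal, and the files were read accordingly.

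Normexp (offset 50) removed the background, and intensities were normalized with loess on each array and with quantiles across channels (limma 3.58.1 with statmod 1.5.0 in R 4.3.3). Replicate spots were averaged after removal of control spots and of 2 to 20 outlier spots on each array. Ratios per animal were tested against 0 with lmFit and eBayes for probes that exceeded background clearly in 4 or more of the 8 channels of a tissue. A bound ("at least") sets the endometrial mean against the lowest signal measurable in blood. The fit was tested on simulated data.

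Both tissues of a number come from the same animal, and their deviations from the tissue means had r of 0.618, 0.364, 0.209 and 0.465 in animals 1 to 4. The members and gene lists were chosen with earlier results of these data known. Named genes are every member, the called, highest and lowest gene of each other list, CD14, CD68 and the 5 genes most like PAG10 and LOC613791, each by its brightest probe. PAG5, PAG19, PAG18, CYM, ITGAM, CDX2, TEAD4, TFAP2A, TFAP2C, SULT1E1 and CYP19A1 fall outside this rule. They were chosen after their values were seen, for probe overlap, detection or their place in the authors' value table. In the lists, 2 names that shared a probe with another name were not counted. Alternatives changed the background correction, normalization, intensities, filter, file reading, pairing, technical replicate, dye term, test and animals. The qPCR and flow cytometry of the study were not analysed here.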

Additional observations from a re-analysis of the deposited data

How the results depend on the processing

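Calls over all probes, 11 in the report, numbered 171 from the scanner's processed signal, 224 from the authors' value table and 66 with an offset of 16. They numbered 5 with loess alone, 5 without the filter on dim probes and 0 with the files as attached. Technical replicate 1 alone gave 20 and technical replicate 2 alone gave 5. A dye term with the animal as a random block gave 793, of which 456 were higher in endometrium. The methods' analysis of variance gave 0 after adjustment and 687 at an unadjusted p. Without each animal in turn the count was 0 in every case. The median of all probes was -0.02, and -0.13 and -0.14 from the processed signal and the value table. For modern PAGs, 2 called probes became 9 from the processed signal, 9 from the value table, 4 with an offset of 16, 7 with the dye term, and 0 with the files as attached, in the adjusted analysis of variance and without any animal.

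With no replicate block, which ignores the pairing of the tissues of an animal, 4 probes were called. The mean ratio of a probe is the same with and without the block by construction, so nothing is read from it. The ratio of LOC613791 was 6.63 from the processed signal, 6.62 in the value table and 4.70 with an offset of 16. With the files as attached the ratios turned to -1.82 for PAG10, -1.74 for LOC613791 and -0.08 for PAG8, as the reading exchanges the tissues in animals 1, 2 and 4. PAG10 without each animal in turn was 4.31 to 5.12 and LOC613791 3.63 to 3.82. Dim blood signal limits LOC613791 and PAG11, and PAG2 had none above background.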
